A study of Mus musculus with 32 samples.

Results

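The IFIT, Mx and related antiviral effectors comprised 10 genes, *Ifit1*, *Ifit2*, *Ifit3*, *Ifit3b*, *Ifit1bl1*, *Ifit1bl2*, *Mx1*, *Mx2*, *Rsad2* and *Isg15*, taken by symbol from the 55291 rows of the count table. RNA-seq of C57BL/6 colon was performed in 32 libraries from wild-type (WT) mice and from mice that lack *Dnase1l3* in the whole body from birth (*Dnase1l3*-KO, hereafter KO), with DNASE1L3 a secreted enzyme that digests extracellular DNA. Whole colon came from untreated mice (D0, 4 KO and 4 WT), from mice given azoxymethane (AOM, 8 mg per kg) and 1 cycle of dextran sulfate sodium (DSS, 2.5% in the water for 7 days) and taken at D19 (4 KO and 4 WT), and from mice given AOM and 3 DSS cycles and taken at D80 (4 KO and 4 WT). Tumors alone came from mice of the 3-cycle regimen (3 KO and 5 WT). AOM was given at 3 months of age, and D0 mice received neither agent. Each library came from 1 numbered mouse, and 3 KO and 3 WT mice gave both a D80 colon and a tumor library.

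These genes are induced by type I and type III interferons, which signal through cell surface receptors to transcription factors that bind the interferon-stimulated response element in their promoters. IFIT proteins bind viral RNA and block its translation, Mx proteins are dynamin-like GTPases that trap viral nucleocapsids, *Rsad2* encodes viperin, an enzyme that makes a chain-terminating nucleotide, and *Isg15* encodes a ubiquitin-like modifier. In colon these genes report on interferon exposure of epithelium, stroma and leukocytes alike, and bulk libraries cannot tell fewer cells of a type from less RNA per cell. C57BL/6 mice carry defective *Mx1* and *Mx2* alleles, so that their transcripts serve here as readouts of induction, and *Mx2* is annotated as a polymorphic pseudogene.

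The 6 *Ifit* genes lie side by side on chromosome 19 (GRCm38), in the order *Ifit2* (34550694 to 34576419, plus strand), *Ifit3* (34583531 to 34588731, plus), *Ifit1bl1* (34592891 to 34601956, minus), *Ifit3b* (34607970 to 34613401, plus), *Ifit1bl2* (34617049 to 34640743, minus) and *Ifit1* (34640871 to 34650009, plus). *Mx1* (97447035 to 97462907, minus) and *Mx2* (97535308 to 97560900, plus) are neighbors on chromosome 16, *Rsad2* is on chromosome 12 (26442746 to 26456452, minus) and *Isg15* on chromosome 4 (156199424 to 156200818, minus). Promoter windows of RefSeq (GRCm38.p6) were matched for 8 of the 10 genes and searched on both strands over the 250 bases before each start for the core of the response element, GAAANNGAAA or its reverse complement TTTCNNTTTC. The motif was present for 7 of these 8 genes (8 of 11 windows), against 978 of all 32851 windows (2.98%), and *Ifit2* had no match in either window. The sequences below are shown because they hold the motif, in capitals. The stretches of *Ifit3* and *Ifit3b* and of *Ifit1bl2* and *Ifit1* belong to the pairs compared later.
Ifit3, chr19:34583359-34583428, plus strand, 170 to 101 bases before the start: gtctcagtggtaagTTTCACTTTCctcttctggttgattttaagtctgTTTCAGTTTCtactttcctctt
Ifit3b, chr19:34607755-34607824, plus strand, 202 to 133 bases before the start: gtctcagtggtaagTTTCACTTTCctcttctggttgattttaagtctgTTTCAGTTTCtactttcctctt
Ifit1bl2-Ifit1, chr19:34640744-34640888, plus strand, all 145 bases between the starts of both genes: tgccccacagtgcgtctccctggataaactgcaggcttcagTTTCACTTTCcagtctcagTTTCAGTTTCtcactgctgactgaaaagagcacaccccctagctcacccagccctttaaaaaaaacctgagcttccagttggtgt
Isg15, chr4:156200859-156200918, minus strand, 100 to 41 bases before the start: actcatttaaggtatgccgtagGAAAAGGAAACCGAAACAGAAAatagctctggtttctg
Rsad2, chr12:26456533-26456592, minus strand, 140 to 81 bases before the start: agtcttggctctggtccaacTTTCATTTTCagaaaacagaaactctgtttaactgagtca
Ifit1bl1, chr19:34602033-34602092, minus strand, 124 to 65 bases before the start: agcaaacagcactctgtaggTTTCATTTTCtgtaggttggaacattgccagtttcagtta

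The stretches of *Ifit3* and *Ifit3b* were identical in 70 of 70 bases, and each held a pair of matches. *Ifit1bl2* and *Ifit1* start head to head, so that 1 pair of matches faces both genes. In *Isg15* 3 matches overlapped, with first bases at 78, 72 and 66 before the start, and *Rsad2* had a single match at 120. A match is a description of the letters and was not tested as a binding site.

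**Figure D1:**
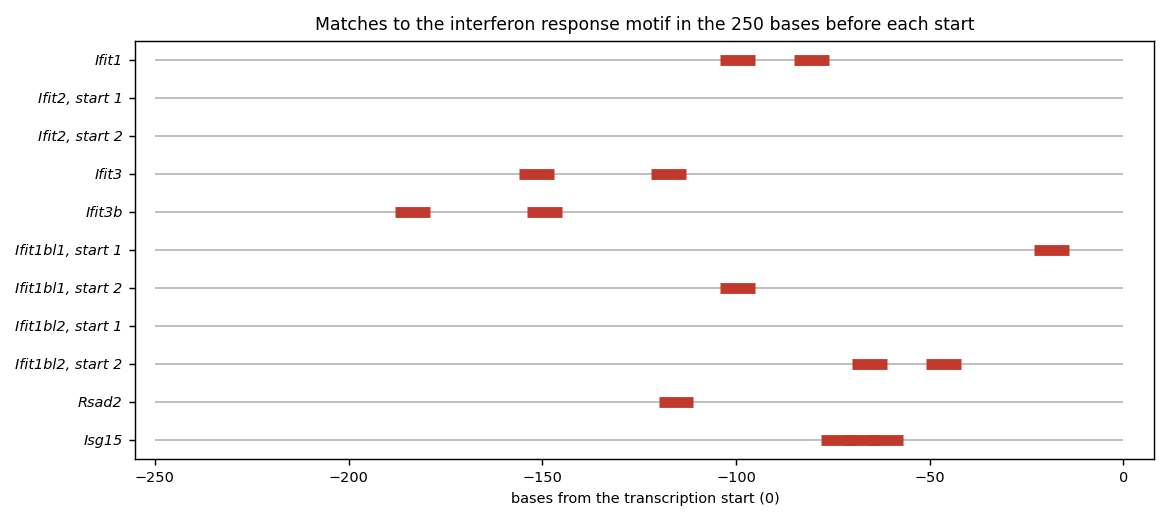
Positions of GAAANNGAAA or TTTCNNTTTC (marks) in the 250 bases before each annotated start (0 on the x axis, in bases), with 1 line per RefSeq window of a member gene. Matches are present in 8 of 11 windows, the nearest at 23 bases before the start of *Ifit1bl1*, and both *Ifit2* windows are empty.

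Total counts were 18951121 to 47623288 per library (median 34333250), and all 10 genes passed the low-count filter in each of the 12 comparisons. Levels are given as CPM, the counts of a gene scaled to the library's total and its TMM factor. The lowest count of a member was 0, for *Mx2* in 1 WT D80 library (mouse 581, which allows up to 0.169 CPM at 3 counts), and otherwise *Mx2* had a median of 27 counts and *Ifit1bl1* of 7823, so that *Mx2* values are the least precise. High mitochondrial mRNA set 3 libraries apart from their groups, KO D19 mouse 811 (10.6% of counts), WT D80 mouse 581 (15.1%) and KO tumor mouse 544 (8.02%). The lowest share of all libraries was 1.53%, in WT tumor mouse 541, against 3.30% to 4.21% in the other WT tumors. *Dnase1l3* averaged 3.24, 3.85, 5.54 and 5.37 CPM in KO at D0, D19, D80 and tumor, against 2.70, 8.14, 6.08 and 6.64 CPM in WT. Its ranges overlapped between the genotypes at D0, D80 and in tumor. At D19 all KO libraries (up to 6.79 CPM) were below all WT libraries (from 7.29 CPM). Since the deleted part of the gene is not named in the sources used here, these counts neither test nor replace the labels. Reads of 75 bases cannot all be assigned to 1 gene: 41.1% of the 75-base words of *Ifit3* and 35.7% of those of *Ifit3b* also occur in another gene, mainly each other, so their separate values are uncertain, while this share was at most 5.34% for the other members.

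Per kilobase of exon, *Ifit1bl1*, an *Ifit1*-like gene of unknown function, was by far the most abundant member in every group. Its mean was 86.7, 86.3, 117 and 127 CPM per kb in KO at D0, D19, D80 and tumor, against 81.0, 98.7, 90.1 and 290 CPM per kb in WT. *Isg15* was next in all 8 groups (9.68 to 90.7 CPM per kb), and *Mx2* was lowest in all 8 (0.137 to 0.593 CPM per kb). Without scaling for length, *Ifit1bl1* alone made 40.3% to 77.3% of the summed CPM of the 10 genes in a library. For each of the 10 genes the group with the highest mean was the WT tumor, but WT tumors were also the most variable group. Ordered by group mean, neighboring groups overlapped in range in 69 of 70 cases, and the exception was *Isg15* in D80 colon, where the lowest KO library (20.01 CPM) was above the highest WT library (16.1 CPM).

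**Figure D2:**
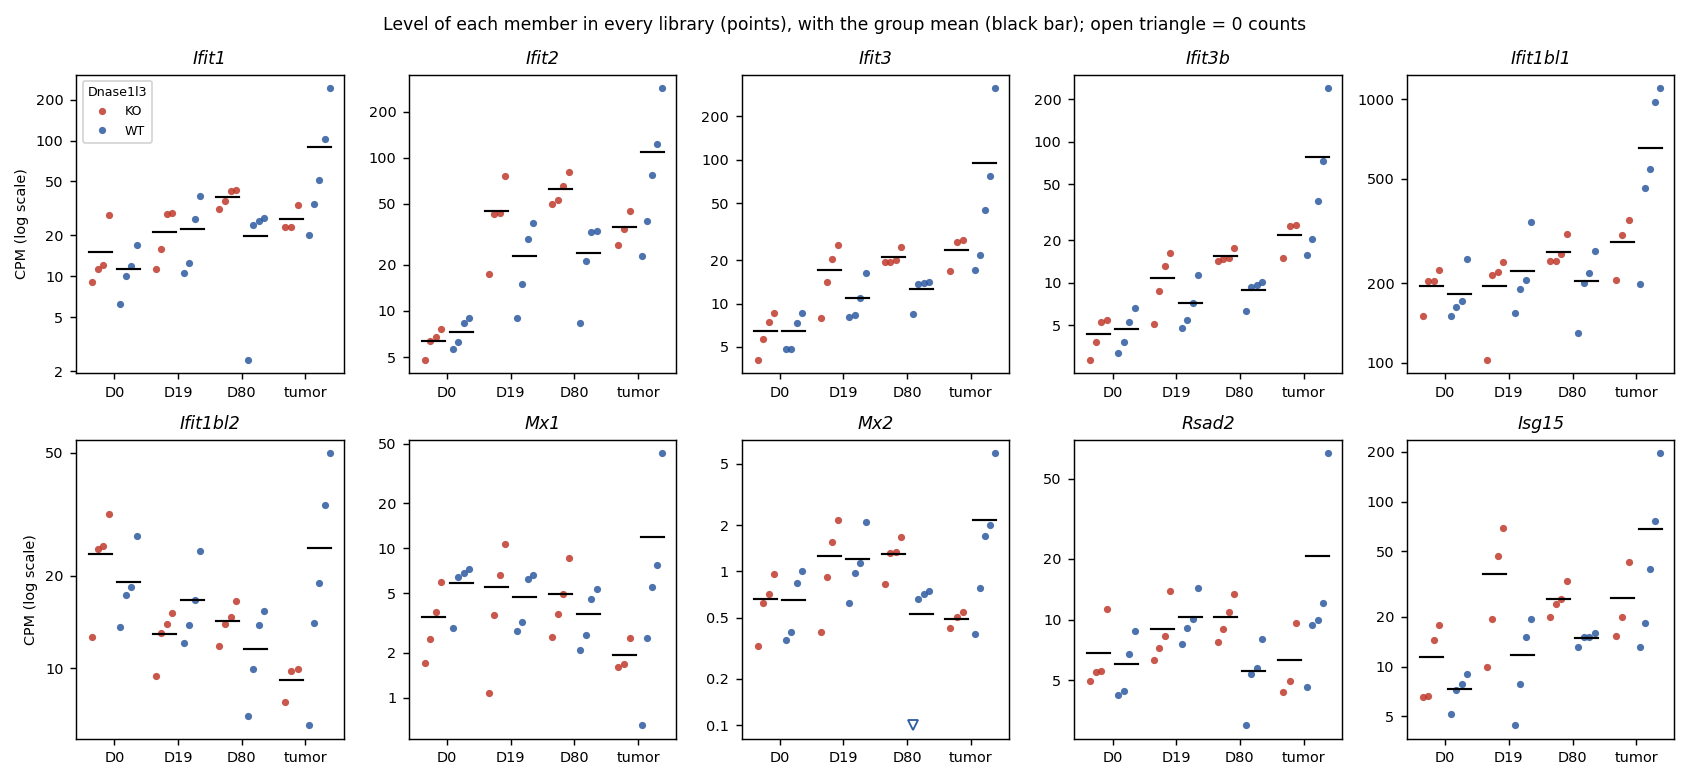
CPM (log scale) of each of the 10 genes in every library, with 1 panel per gene, the stages from D0 to tumor on the x axis, KO to the left of WT within a stage, and the group mean as a black bar. An open triangle stands for 0 counts; WT tumors have the highest mean in all panels and the widest spread in most, and *Ifit1bl2* and *Mx1* do not show the low D0 level of *Ifit2*.

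Treated colon was compared with untreated colon of the same genotype. Labels put a number of unstated meaning, here called the prefix, before the mouse number. No prefix was shared between D0, D19 and D80, so the stage cannot be told apart from it in these comparisons. *Ifit2*, which binds RNA and partners with IFIT1 and IFIT3, had the largest positive log2 fold change of the 10 genes at D19 and D80 in both genotypes. It was at 6.38, 6.80, 4.79 and 7.56 CPM in KO D0 colon and 9.04, 5.65, 6.22 and 8.31 CPM in WT D0 colon. In KO colon it was at 43.8, 76.3, 17.5 and 42.8 CPM at D19 and at 80.9, 65.6, 49.6 and 52.8 CPM at D80. In WT colon it was at 8.98, 14.9, 29.4 and 37.7 CPM at D19 and at 8.28, 33.0, 32.8 and 21.2 CPM at D80. All KO libraries at D19 and D80 were above all KO D0 libraries, whereas 1 WT library at each stage lay within the D0 range. By edgeR's quasi-likelihood test with Benjamini-Hochberg adjustment, *Ifit2* rose against D0 by 2.81 on the log2 scale at D19 in KO (SE 0.41, adjusted p = 0.00144) and by 1.59 in WT (SE 0.39, adjusted p = 0.00756). By the same edgeR test it rose at D80 by 3.24 in KO (SE 0.19, adjusted p = 3.6e-06) and by 1.67 in WT (SE 0.40, adjusted p = 0.0259).

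A gene was called when its fold exceeded 2 and its adjusted p was below 0.05. D19 colon had 3 of 10 members called against D0 in KO (*Ifit2*, *Ifit3* and *Ifit3b*) and 1 in WT (*Ifit2*), all higher. Of all genes tested, 8.95% were called higher in KO and 9.33% in WT, or 11.5% and 13.4% in either direction. At D80 5 members were called higher in KO (*Ifit1*, *Ifit2*, *Ifit3*, *Ifit3b* and *Isg15*) and 1 in WT (*Ifit2*), against 13.4% of all genes called higher in KO and 7.07% in WT (21.0% and 10.3% in either direction). *Ifit3*, which stabilizes the binding of IFIT1 to RNA in human cells, rose by 1.67 on the log2 scale in KO at D80 (SE 0.20, edgeR adjusted p = 1.2e-04), and *Ifit3b* rose by 1.79 (SE 0.19, edgeR adjusted p = 5.9e-05). *Ifit1*, which binds RNA whose cap lacks a methyl mark, rose by 1.29 (SE 0.31, edgeR adjusted p = 0.00588), and *Isg15* by 1.14 (SE 0.32, edgeR adjusted p = 0.0124). In WT at D80 *Isg15* was just under the fold limit, at 0.998 on the log2 scale (SE 0.21, edgeR adjusted p = 0.0136), with all 4 WT D80 libraries above all WT D0 libraries. The WT D80 library of mouse 581 was the lowest of its group in 9 of 10 members, and without it 3 members were called in WT (*Ifit1*, *Ifit2* and *Ifit3*). The WT count was 0 without D0 mouse 918, D0 mouse 920 or D80 mouse 541. It was 2 without D0 mouse 851 (*Ifit3* and *Isg15*) or D80 mouse 555 (*Ifit2* and *Isg15*). Without D0 mouse 927 or D80 mouse 542 the 1 member called in WT was *Isg15*. With 1 library left out, *Ifit2* thus kept its WT call only without D80 mouse 555 or 581 (edgeR adjusted p up to 0.092). The D19 count in KO was 1 (*Ifit2*) without D0 mouse 852, 853 or 872 or D19 mouse 804 or 813, and that in WT was 2 without D19 mouse 685. The median log2 fold change of all genes was between 0.00 and 0.05 in these comparisons. Log2 fold changes against D0 were positive for 8 of 10 members at D19 in each genotype. At D80 they were positive for 9 members in KO and 6 in WT. Besides *Ifit1bl2*, the negative ones at D19 were *Ifit1bl1* (-0.02) in KO and *Mx1* (-0.35) in WT. At D80 they were *Mx1* (-0.70), *Mx2* (-0.27) and *Rsad2* (-0.14), all in WT.

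*Ifit1bl2* had negative differences at D19 and D80. It was at 16.5, 14.7, 13.97 and 11.8 CPM in KO D80 colon and 24.4, 24.9, 12.7 and 31.7 CPM in KO D0 colon, and at 6.99, 13.9, 9.98 and 15.3 CPM in WT D80 colon against 26.9, 17.3, 13.6 and 18.3 CPM in WT D0 colon. Both D80 groups overlapped their D0 groups. The log2 difference at D80 was -0.76 in KO (SE 0.23, edgeR adjusted p = 0.0197, under the fold limit) and -0.75 in WT (SE 0.29, edgeR adjusted p = 0.135). At D19 it was -0.87 in KO (SE 0.28, edgeR adjusted p = 0.0788) and -0.24 in WT (SE 0.24, edgeR adjusted p = 0.448). *Ifit1*, on the other side of the 145 bases printed above, had positive differences in the same comparisons. The ratio of *Ifit1* to *Ifit1bl2* (both in CPM per kb) was therefore 3.25 to 3.70 in the 4 KO D80 libraries and 0.462 to 1.14 in the 4 KO D0 libraries, with no overlap. In WT it was 0.440, 2.47, 3.27 and 1.99 at D80, lowest in mouse 581, and 0.580 to 0.869 at D0. At D19 the ratio was 1.11 to 2.65 in KO and 0.949 to 2.79 in WT. In tumors the ratio was 2.93 to 4.33 in KO and 2.29 to 6.19 in WT. The ratio of *Ifit3* to *Ifit3b*, which share the other printed sequence, moved far less, between 1.21 and 1.99 over all 32 libraries. The reads that *Ifit3* and *Ifit3b* share enter this second ratio, and how far they set it was not tested.

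Between genotypes, untreated colon gave no call among the 10 genes (0.00% of all genes were called), and DESeq2 likewise called 0 members at D0, D19 and D80. Log2 fold changes, KO over WT, were -0.73 to 0.64, 7 of them positive, and no member had an unadjusted p under 0.05 by edgeR, as 9.63% of all genes did. All member ranges overlapped, and *Isg15* came closest, at 6.54, 14.5, 6.68 and 17.99 CPM in KO D0 colon and 7.86, 7.27, 5.15 and 9.00 CPM in WT D0 colon (log2 fold change 0.64, SE 0.32, edgeR adjusted p = 0.535).

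At D19 no member was called (0.00% of all genes). *Isg15* was at 68.9, 46.9, 9.97 and 19.45 CPM in KO colon and 4.42, 7.89, 15.1 and 19.43 CPM in WT colon, so that 2 KO libraries were well above all WT libraries, mouse 804 was level with the highest WT library and mouse 803 fell within the WT range. Its log2 fold change was 1.70 (SE 0.64, edgeR adjusted p = 0.421), and *Ifit2* followed with 1.03 (SE 0.51, edgeR adjusted p = 0.449). The other 8 members lay between -0.34 and 0.69. *Isg15* was the 1 member with an unadjusted p under 0.05, a limit that 11.3% of all genes passed. Without KO mouse 811, the highest for *Isg15* and the library with high mitochondrial mRNA, *Isg15* was 1.12 higher (edgeR adjusted p = 0.364) and 0 members had an unadjusted p under 0.05. The interaction of genotype and D19 against D0 was -0.64 (*Ifit1bl2*) to 1.22 (*Ifit2*), with 0 members called (0.0298% of all genes) and 0 at an unadjusted p under 0.05 (8.15% of all genes). The label prefix differed between D19 mice, and with it as a term *Isg15* was 0.74 higher (edgeR adjusted p = 0.981). WT mice 685 and 686, lowest for *Isg15*, had prefix 97, which no KO mouse had. Within prefix 116 *Isg15* was at 68.9 and 46.9 CPM in KO and 19.43 CPM in WT. Within prefix 115 it was at 9.97 and 19.45 CPM in KO and 15.1 CPM in WT. Neutrophil markers were higher in KO D19 colons for 7 of 7 genes (summed CPM 404 to 732 in KO and 36.9 to 215 in WT), all 7 at an unadjusted p under 0.05 but none called. Monocyte and macrophage markers were higher for 8 of 8 genes (833 to 1530 CPM in KO and 693 to 729 CPM in WT), interferon-γ-induced genes for 8 of 8 (185 to 817 CPM in KO and 105 to 272 CPM in WT) and cytotoxic lymphocyte markers for 4 of 5 (8.99 to 33.3 CPM in KO and 2.49 to 8.01 CPM in WT), with 0 called. No gene of these lists was at 0 counts in either group, and their part in the *Isg15* difference was not tested.

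At D80 all 10 members were higher in KO colon on the log2 scale (0.28 to 1.37, median 0.75, against a median of 0.01 over all genes), but none was called (0.00% of all genes), and every adjusted p was 0.681 or above by edgeR. An unadjusted p under 0.05 was found for 5 of 10 members, namely *Ifit2*, *Ifit3*, *Ifit3b*, *Rsad2* and *Isg15*, against 5.55% of all genes. In 6 members, *Ifit1*, *Ifit2*, *Ifit3*, *Ifit3b*, *Mx2* and *Isg15*, the lowest KO library was above the highest WT library, a pattern that 3.34% of all genes had. *Isg15* was at 25.6, 33.1, 20.01 and 24.1 CPM in KO and 15.2, 16.1, 13.1 and 15.1 CPM in WT (log2 fold change 0.74, SE 0.19, edgeR adjusted p = 0.681). *Ifit3* was at 20.2, 24.7, 19.5 and 19.6 CPM in KO and 8.45, 13.7, 14.2 and 14.01 CPM in WT (0.71, SE 0.18, edgeR adjusted p = 0.681). *Ifit3b* was 0.76 higher in KO (SE 0.17), and *Ifit2* had the largest difference of the set (1.37, SE 0.38). *Ifit1* was at 43.0, 42.8, 35.8 and 31.4 CPM in KO and 2.42, 27.0, 25.7 and 24.0 CPM in WT, with the WT spread set by mouse 581.

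Without mouse 581 the D80 difference was smaller in 9 of 10 members, all but *Isg15*. *Ifit1* was then 0.57 higher in KO, *Ifit2* 1.09, *Ifit3* 0.58, *Ifit3b* 0.66 and *Isg15* 0.79 on the log2 scale, 7 members had an unadjusted p under 0.05 by edgeR, and the smallest adjusted p was 0.406. With the label prefix as a term, the comparison rests on the only prefix with both genotypes (KO 543 and 544, WT 541 and 542). In this setting 9 of 10 differences were positive (-0.40 for *Mx1* to 0.64 for *Ifit2*). An unadjusted p under 0.05 by edgeR was found for 6 members, and 0 were called. Other lists moved with the genotype at D80. Interferon-γ-induced genes were higher for 8 of 8 genes and summed to 410 to 543 CPM in KO and 120 to 295 CPM in WT. Cytotoxic lymphocyte markers (4 of 4 tested genes higher) summed to 7.22 to 18.98 CPM in KO and 3.61 to 7.09 CPM in WT, and fibroblast markers (3 of 4 higher) to 687 to 772 CPM in KO and 336 to 612 CPM in WT. Smooth muscle markers (0 of 5 higher) summed to 1735 to 2740 CPM in KO and 2803 to 3607 CPM in WT. None of these genes was called or at 0 counts in either group, and their part in the member differences was not tested.

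**Figure D3:**
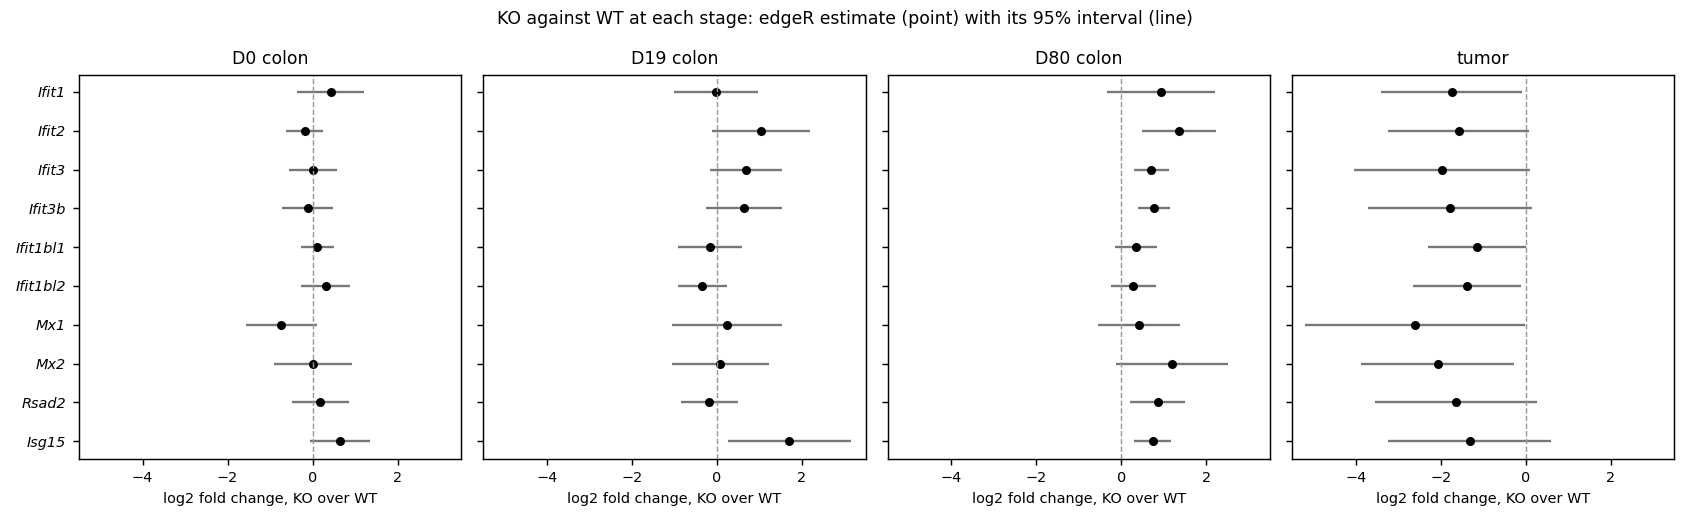
Log2 fold change of each member, KO over WT (x axis), at D0, D19, D80 and in tumor, as edgeR's estimate (point) with its 95% interval (line) and a dashed line at 0. At D80 all 10 points are right of 0 and in tumor all 10 are left of it, and no member was called in any of these panels.

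Tumors were set against D80 colon within each genotype. In WT 10 of 10 members were higher in tumor (0.99 to 3.03 on the log2 scale) and 3 were called, *Ifit3*, *Ifit3b* and *Ifit1bl1* (8.00% of all genes were called higher, 21.5% in either direction). *Ifit3* was at 44.8, 314, 77.5, 17.2 and 21.6 CPM in WT tumors and 8.45, 13.7, 14.2 and 14.01 CPM in WT D80 colon, without overlap. It rose by 2.82 (SE 0.85, edgeR adjusted p = 0.0305), and *Ifit3b* by 3.03 (SE 0.80, edgeR adjusted p = 0.0175). *Ifit1bl1* was at 459, 974, 1104, 200 and 543 CPM in WT tumors and 130, 219, 200 and 266 CPM in WT D80 colon, and rose by 1.58 (SE 0.46, edgeR adjusted p = 0.0282). With the mouse as a replicate block, as 3 of these mice gave both tissues, 5 members were called (*Ifit1*, *Ifit2*, *Ifit3b*, *Ifit1bl1* and *Ifit1bl2*). The count was 1 (*Ifit3b*) without the D80 colon of mouse 541 or 542 and 5 without tumor 555 or 579, with *Ifit2*, *Ifit3*, *Ifit3b*, *Ifit1bl1* and *Isg15* called. Without tumor 541 the differences were 0.04 (*Mx1*) to 1.94 (*Ifit3b*), 2 members were called, *Ifit3* (1.56) and *Ifit3b*, and *Ifit1bl1* was at 1.39 (edgeR adjusted p = 0.066).

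In KO the same contrast gave 2 members called lower, *Mx1* and *Mx2*, and none called higher (16.4% of all genes were called lower, 26.7% in either direction). *Mx2* was at 0.545, 0.507 and 0.429 CPM in KO tumors and 1.32, 1.67, 1.33 and 0.8288 CPM in KO D80 colon, and fell by 1.40 on the log2 scale (SE 0.31, edgeR adjusted p = 0.0079). *Mx1* was at 1.61, 2.51 and 1.68 CPM in KO tumors and 3.65, 8.60, 4.94 and 2.55 CPM in KO D80 colon, and fell by 1.38 (SE 0.42, edgeR adjusted p = 0.0282). The tumor range lay below the D80 range in 4 members, *Ifit2*, *Ifit1bl2*, *Mx1* and *Mx2*, as it did in 27.9% of all genes. *Ifit2* was 0.82 lower (SE 0.25, edgeR adjusted p = 0.030) and *Ifit1bl2* 0.65 lower (SE 0.18, edgeR adjusted p = 0.0197), both under the fold limit, whereas *Ifit3*, *Ifit3b*, *Ifit1bl1* and *Isg15* were 0.04 to 0.51 higher and not called. With the mouse as a replicate block only *Mx2* was called (-1.24), and *Mx1* was at -0.95 (edgeR adjusted p = 0.0387), under the fold limit. The count was also 1 (*Mx2*) without the D80 colon of mouse 535 or 543 or without tumor 527, and 3 (*Ifit2*, *Mx2* and *Rsad2*) without tumor 544, the library with high mitochondrial mRNA.

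The 6 mice with both tissues allowed the ratio to be taken within a mouse. Among the WT mice they include 541 and 542, the pair of tumors with the highest levels in 9 of 10 members. WT tumors 534 and 579, the latter lowest in all 10 members, had no D80 colon library. *Ifit2* in tumor was 0.331, 0.688 and 0.846 of the D80 colon level of the same mouse in KO mice 527, 543 and 544, against 8.61, 3.73 and 1.83 in WT mice 541, 542 and 555. *Ifit1* was at 0.537, 0.938 and 0.730 of the colon level in the KO mice and 9.01, 4.003 and 1.43 in the WT mice. *Mx2* was at 0.414, 0.381 and 0.517 in the KO mice and 8.88, 2.27 and 1.11 in the WT mice. *Ifit1*, *Ifit2*, *Ifit1bl2* and *Mx2* were lower in tumor in each KO mouse and higher in tumor in each WT mouse (1.06% of all genes). In 9 of 10 members, all but *Isg15*, the 3 KO ratios were below the 3 WT ratios (9.80% of all genes). The interaction of genotype and tissue was negative for all 10 members, from -1.46 for *Ifit1bl1* to -3.25 for *Mx2*. All 10 had an unadjusted p under 0.05, as did 11.7% of all genes, but no member was called (0.00% of all genes), with adjusted p of 0.419 to 0.422 by edgeR, and DESeq2 called 0 members in this and the D19 interaction. With the mouse as a replicate block the interaction was -1.74 to -2.72 and none was called. Without WT tumor 541 it was -1.15 to -2.44, with 8 members at an unadjusted p under 0.05 by edgeR. The lowest such count on leaving out 1 library was 6, without KO tumor 527.

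**Figure D4:**
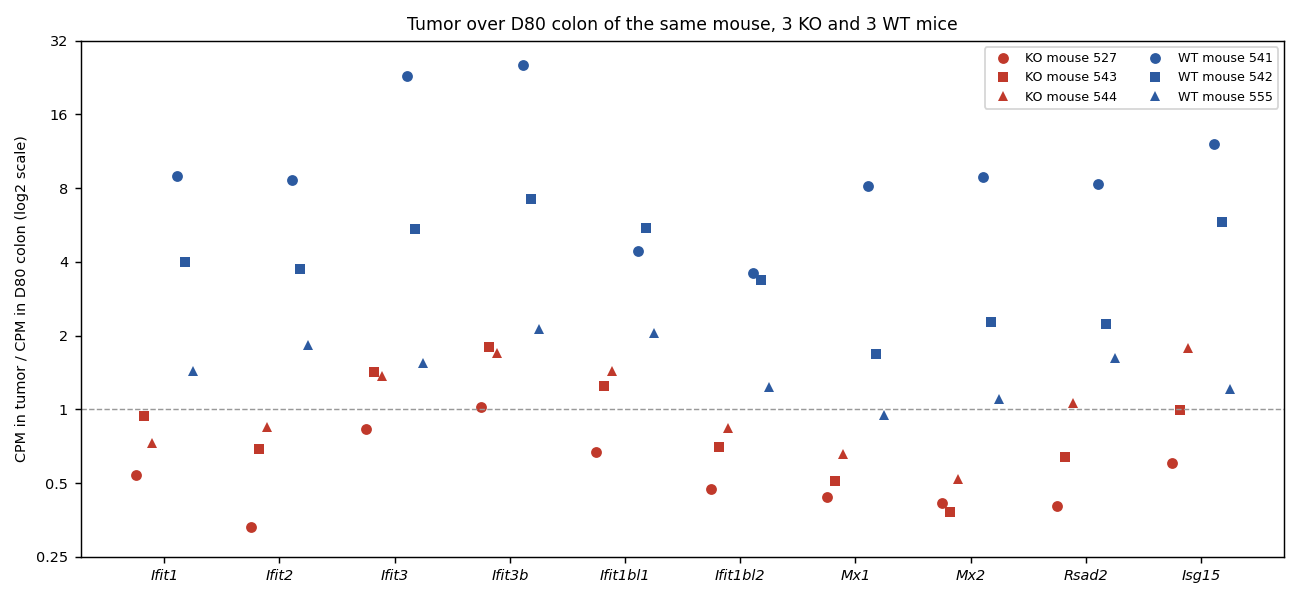
CPM in tumor over CPM in D80 colon of the same mouse (log scale) for each member, in 3 KO mice left of 3 WT mice. The KO ratios lie below the WT ratios in every member but *Isg15*, and WT mouse 541 has the highest ratio in 9 of 10 members.

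KO and WT tumors were then compared directly, at the limit used by the study for tumors, an unadjusted p under 0.01 and a fold over 2. All 10 members were lower in KO tumors, by -1.14 to -2.60 on the log2 scale (median -1.69, against -0.02 over all genes), yet none was called (0.0422% of all genes were called lower, 0.306% in either direction), every adjusted p was 0.699 or above, and all ranges overlapped (in 1.13% of all genes the KO range was lower without overlap). *Ifit1* was at 23.1, 33.6 and 22.9 CPM in KO tumors and 51.2, 243, 103, 20.1 and 34.3 CPM in WT tumors (log2 fold change -1.74, SE 0.74, edgeR adjusted p = 0.699). *Mx2* was at 0.545, 0.507 and 0.429 CPM in KO tumors and 2.00, 5.84, 1.70, 0.393 and 0.783 CPM in WT tumors (-2.07, SE 0.80, edgeR adjusted p = 0.699). *Ifit1bl2* was at 7.80, 9.84 and 9.93 CPM in KO tumors and 14.004, 49.8, 33.8, 6.54 and 18.96 CPM in WT tumors (-1.38, SE 0.57, edgeR adjusted p = 0.699). KO tumors formed a narrow range near the lower end of the WT tumors in each of these genes. *Ifit1*, *Ifit1bl2*, *Mx1* and *Mx2* had an unadjusted p under 0.05 by edgeR, against 6.61% of all genes. DESeq2 called 2 members lower (*Ifit1bl2* and *Mx2*), and an edgeR fit of all 32 libraries, which shares 1 estimate of the spread over the groups, called 7, all but *Ifit1*, *Ifit2* and *Isg15*. The share of all genes called in these 2 fits is not given here, and the shares above belong to the main fit. *Ifit1bl2* and *Mx2* are among 11 interferon-related genes that the study named as lower in KO tumors on these samples, so their direction is not independent evidence.

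The spread of WT tumors came from mouse 541 at the top and mouse 579 at the bottom. Tumor 541 was highest in 9 of 10 members, with *Mx1* 10.8 times, *Ifit3* 9.46 times and *Ifit1bl1* 1.94 times the median of the other WT tumors, and tumor 579 was lowest in all 10. Without 541 the differences between KO and WT tumors were -0.41 (*Isg15*) to -1.25 (*Mx2*), with no unadjusted p under 0.05 by edgeR. No member had an unadjusted p under 0.05 without KO tumor 527 either, nor without KO tumor 544, where the differences were -1.38 to -2.56. Without 579, 3 members were called (*Ifit1bl1*, *Ifit1bl2* and *Mx2*). The share of all genes called is not given for this setting or the next ones. Within the only label prefix that holds tumors of both genotypes, which contributes KO 543 and 544 and WT 541 and 542, all 10 differences were negative (-1.61 to -3.57) and 9 were called, but these WT tumors were the pair with the highest levels in 9 of 10 members, all but *Mx2*. Without WT 541 and KO 544, a setting chosen after seeing the data, the differences were -0.87 to -1.21 and none was called. Cytotoxic lymphocyte markers (5 genes, none at 0 counts in either group) summed to 4.45 to 15.2 CPM in KO tumors and 1.44 to 33.7 CPM in WT tumors, T cell markers (7 genes) to 9.79 to 12.4 and 4.71 to 29.8 CPM, and *Ifng*-induced genes (8 genes) to 210 to 608 and 134 to 1581 CPM. Tumor 541 held the highest and tumor 579 the lowest of these sums in all 3 lists, and the part of lymphocyte content in the member levels was not tested.

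**Figure D5:**
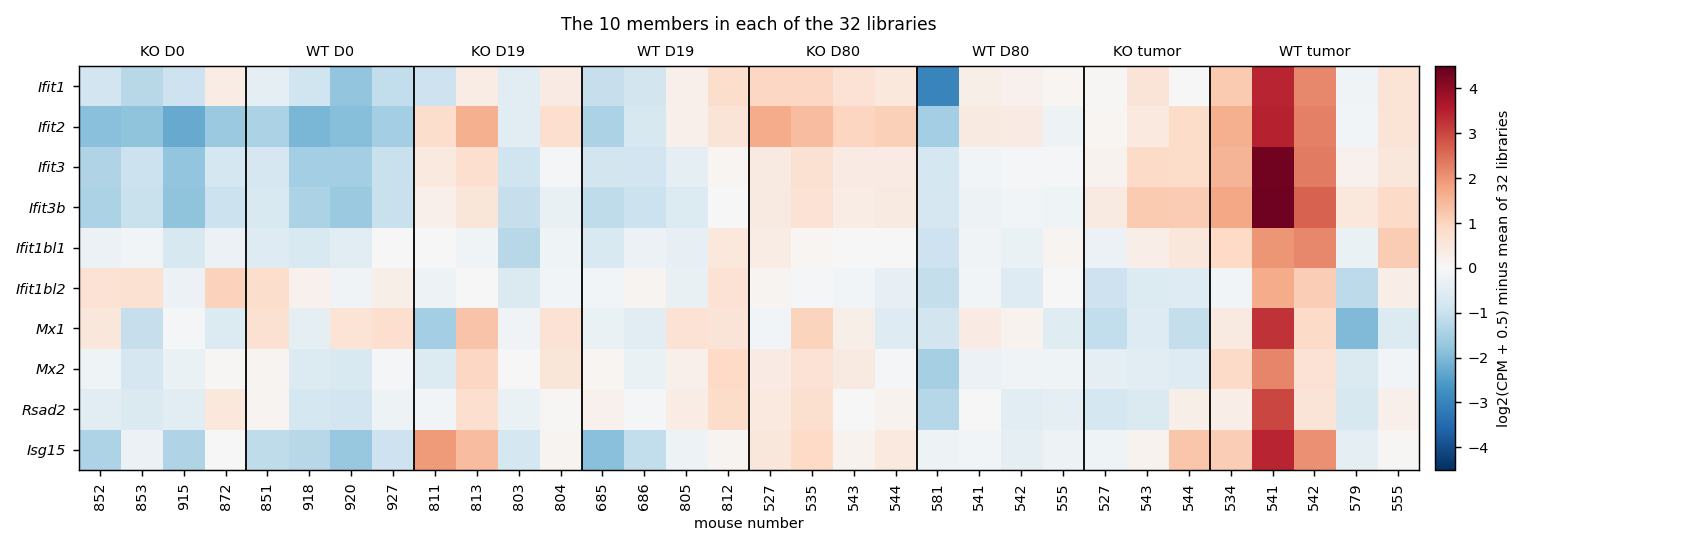
Log2(CPM + 0.5) of each member in each of the 32 libraries, minus the mean of the gene over all libraries (color), with libraries grouped by stage and KO left of WT. WT tumor 541 is the darkest red column, D0 columns are blue for *Ifit2*, *Ifit3* and *Ifit3b* but not throughout for *Ifit1bl2* or *Mx1*, and WT D80 581 is blue among its neighbors.

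Over the 32 libraries the members moved together to different degrees. Pearson's r of log2(CPM + 0.5) was 0.137 to 0.991 over the 45 pairs (median 0.683), and 0.492 to 0.995 (median 0.776) after group means were removed. These points share stages and tissue composition, so r is a description only. The extremes were *Ifit3* with *Ifit3b* (0.991) and *Ifit2* with *Ifit1bl2* (0.137). *Ifit1bl2* was least like the mean of the other members (0.486), followed by *Mx1* (0.590). Among 16333 genes with at least 1 CPM on average, those most like the mean of the members were *Oas2* (0.915), *Dhx58* (0.906), *Parp10* (0.901), *Cmpk2* (0.900), *Trafd1* (0.900), *Oas3* (0.892), *Apol9b* (0.880) and *Oasl2* (0.880). After group means were removed they were *Apol9a* (0.952), *Herc6* (0.939), *Apol9b* (0.934), *Dhx58* (0.929), *Oasl2* (0.927), *Oas3* (0.924), *Oas2* (0.911) and *Trim30a* (0.908).

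The rest of the interferon pathway was described from lists. Of 7 ligand genes only *Ifng* passed the filter in a comparison, at 2.43 CPM on average in KO D19 colon and 0.122 CPM in WT D19 colon (log2 fold change 4.31, edgeR adjusted p = 0.36). *Ifnb1* was at 0 counts in every group but KO D80. Of 6 receptor genes, *Ifnar2* alone was called higher at D19 and at D80 against D0, in both genotypes. It rose by 1.97 in KO (edgeR adjusted p = 3.7e-06) and 1.28 in WT (edgeR adjusted p = 0.00478) at D80. Among the signaling genes, *Stat2*, a transcription factor of the pathway, rose by 1.19 and *Socs1*, a feedback inhibitor, by 1.63 in KO at D80 against D0, and both were called. In WT *Irf7*, a transcription factor that amplifies interferon production, fell by 1.47 (edgeR adjusted p = 0.00246).

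The enzymes that attach ISG15 to proteins or remove it were called higher at D80 against D0 for 4 of 4 genes in KO and 3 of 4 in WT, where 13.4% of all genes were called higher in KO and 7.07% in WT. *Usp18*, which removes ISG15 and dampens receptor signaling, rose by 2.65 in KO and 1.87 in WT, and *Herc6*, the mouse ligase, by 1.65 in KO and 1.75 in WT. Of 26 other interferon-stimulated genes 19 were called higher at D80 in KO and 7 in WT, among them *Zbp1*, a sensor of Z-form nucleic acid (2.60 in KO and 2.12 in WT), and *Trim30a* (2.06 in KO and 1.90 in WT). Of 8 genes induced mainly by interferon-γ, 8 were called higher in KO and 7 in WT. KO against WT at D80, 22 of the 26 were higher and 12 did not overlap (3.34% of all genes), with 0 called and a median of 0.59. In KO tumors 25 of the 26 were lower than in WT tumors (median -0.86, 0 called), as were 4 of 4 ISG15 enzymes. *Herc6* (-1.38) and *Oas3* (-1.82) were examples, both with an edgeR adjusted p of 0.699. The 26 include *Dhx58*, *Oas2*, *Oas3* and *Oasl2*, which the study named as lower in KO tumors on these samples. The direction of this list in tumors is therefore not independent evidence.

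Cell type markers moved with the stages as well. Summed T cell markers were 25.7 to 49.6 CPM in KO D80 colon and 1.91 to 3.83 CPM in KO D0 colon, and 16.5 to 39.1 CPM in WT D80 colon and 1.39 to 3.80 CPM in WT D0 colon. Monocyte and macrophage markers (8 genes) summed to 831 to 1218 CPM in KO D80 colon and 99.4 to 144 CPM in KO D0 colon, whereas epithelial markers (8 genes) summed to 9999.7 to 13590 CPM in KO D80 colon and 14250 to 27154 CPM in KO D0 colon. Smooth muscle markers were called lower in tumor against D80 colon for 5 of 5 genes in both genotypes. The part of cell composition in the member levels was not tested.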

How the data were processed

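RNA-seq of 32 libraries was used, and all 8 groups follow the sample titles. Per the methods of the authors, who deposited raw counts per gene, single-end reads of 75 bases were checked with FastQC 0.11.5, aligned with STAR 020201 to mm10 and counted with subread 1.6.2 on GENCODE vM25. Whether the counting used strand or reads with several matches is not given in the sources used here. Gene positions, exon lengths and shared 75-base words came from GENCODE M21 on GRCm38, and promoters from RefSeq on GRCm38.p6.

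The 10 members and all gene lists were chosen with earlier results of these data known. Differential expression was computed with edgeR 4.0.16 in R 4.3.3 (TMM, filterByExpr, quasi-likelihood test) on the libraries of the groups compared, with p adjusted over all genes tested. SEs are the log2 fold change divided by the square root of F, and 95% intervals use the t quantile of the fit. Calls needed an adjusted p under 0.05 and a fold over 2 or, between tumors, an unadjusted p under 0.01. All members were tested in every comparison, but values are not printed for each of them. Up to 4 genes of each other list (interferon ligands, receptors, signaling genes, ISG15 enzymes, other interferon-stimulated genes, interferon-γ-induced genes) are named by smallest p. The genes most like the members were ranked by Pearson's r on log2(CPM + 0.5). Descriptive values used Python 3.11.15 with pandas 2.3.3 and numpy 2.4.6, and figures matplotlib 3.10.9.

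Labels number the mice, and p-values measure the spread between mice where each mouse gave 1 library to a comparison. The main tests of tumor against D80 colon, and their interaction with genotype, took both libraries of a mouse as independent. The same number in tumor and D80 colon marks the same animal (3 KO and 3 WT), and deviations from the group means of same-numbered samples correlated at 0.0368 to 0.261 over 16343 genes. Other settings tried were a fit of all 32 libraries, blocks for the label prefix or the mouse, each library left out in turn, RLE in place of TMM, DESeq2 1.42.0, and either no filter or one of 10 counts in each library. Computations were tested on simulated counts with the same spread for all genes and no outlying library. This does not cover the spread of the WT tumors. Some results of the signaling list are not reported here.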

Additional observations from a re-analysis of the deposited data

Results flagged for a closer look

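In 8 of 70 tests (10 genes in the 7 groups of 4 or 5 libraries, on log2(CPM + 0.5)), the highest or lowest library stood away from the others by more of the group's range than Dixon's 95% limit allows, and chance alone gives about 1 in 20. The WT D80 colon of mouse 581 was the low library in 4 of them. Its gap to the nearest library was 0.949 of the range for *Ifit1* (2.42 CPM, others 24.0 to 27.0 CPM), 0.929 for *Ifit3* (8.45 CPM, others 13.7 to 14.2 CPM), 0.846 for *Ifit3b* (6.31 CPM, others 9.40 to 10.1 CPM) and 0.919 for *Mx2* (0 counts, others 0.658 to 0.747 CPM). This library had 15.1% mitochondrial mRNA. The other 4 were *Ifit3* in KO D80 mouse 535 (24.7 CPM, highest, 0.859), *Rsad2* in KO D0 mouse 872 (11.3 CPM, highest, 0.859), *Ifit1bl1* in KO D19 mouse 803 (102 CPM, lowest, 0.872) and *Mx1* in WT D0 mouse 918 (2.93 CPM, lowest, 0.863).

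*Ifit1* and *Ifit2* differed in direction between the genotypes. Against the mean of the D80 colons of its genotype, on the log2(CPM + 0.5) scale, each of the 3 KO tumors was lower and each of the 5 WT tumors was higher. Without WT D80 mouse 581, low in both genes, that mean was 25.5 CPM for *Ifit1* and 28.4 CPM for *Ifit2*, and WT tumor 579 (20.1 and 22.7 CPM) lay below it, leaving 4 of 5 WT tumors higher. The interaction of genotype and tissue was -2.66 for *Ifit1* and -2.92 for *Ifit2* on the log2 scale, and by edgeR it did not pass the limit (adjusted p = 0.419 for both).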

How the results depend on the processing

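Of 1811 single values recomputed under an alternative, 1655 kept their direction and side of the limit, 42 lost a call, 59 gained one and 55 stayed uncalled but changed sign. No called value changed sign. Of 182 counts of called members, 148 stayed within 1.5 times, 17 were lower and 17 higher. Between KO and WT tumors 0 members were called, but DESeq2 called 2, the fit of all 32 libraries 7 and the label prefix as a block 9. For D19 against D0 in KO the fit of all libraries called 1 in place of 3. For D80 against D0, WT had 2 in place of 1 with DESeq2, RLE size factors or the filter of 10 counts in each library, and KO had 3 in place of 5 in the fit of all libraries. For tumor against D80, WT had 7 with DESeq2, 9 in the fit of all libraries and 5 without a filter in place of 3, and KO had 0 in the fit of all libraries in place of 2. In the paired analysis with the mouse as a replicate block, 5 members were called in WT and 1 in KO, and the block changed no call in the interaction. The share of all genes called under each alternative is not given here, so these counts were not set against it. The causes were not tested.

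Leaving out 1 library gave 0 to 0 calls between genotypes at D0, D19 and D80 and in both interactions, and 0 to 3 in tumor. It gave 1 to 2 (WT) and 1 to 4 (KO) for D19 against D0, 0 to 3 (WT) and 4 to 6 (KO) for D80 against D0, and 1 to 5 (WT) and 1 to 3 (KO) for tumor against D80. Under the filter of 10 counts 9 values could not be computed, as the gene was dropped. *Mx2*, with a median of 27 counts, was limited most by depth, and groups of 3 to 5 mice limit all comparisons.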
